A study of Mus musculus with 6 samples.

Results

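The 9 genes described here encode receptors that hold blood cells in the bone marrow or draw them out of it: Cxcr4, Cxcr2, Ccr2, Ccr1, Cxcr3, Ccr9, Ccrl2, S1pr1 and S1pr4. They were chosen by gene name from tables of 30803 rows, all 9 were found, and none of their symbols was repeated. RNA had been sequenced from cells labelled as hematopoietic stem cells, taken from the marrow of wild-type (WT) mice aged 12 months. They had been sorted by surface MHC class II, the antigen-presenting complex, into a high (MHCII-hi) and a low (MHCII-lo) fraction, with 3 libraries each. Every group shares the genotype, the tissue and the age, and no treatment is given. How the stem cell gate was drawn and whether libraries came from separate animals is not given in the labels. The p-values therefore describe variation among these 6 libraries, and that variation may be technical.

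CXCR4 is the receptor for CXCL12, which stromal cells of the marrow make, and this pair retains stem cells and immature neutrophils. CXCR2, the receptor for CXCL1, CXCL2 and related chemokines, acts against it and lets mature neutrophils leave, while CCR2 does the same for monocytes. Receptors for sphingosine-1-phosphate (S1P), a lipid that is abundant in blood and scarce in tissue, guide lymphocytes and some progenitors out along its gradient. All of them are seven-pass membrane proteins, and most signal through inhibitory G proteins.

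Of the 9 receptor genes, 8 reached a mean of 1 FPKM (read fragments scaled to transcript length and library size, the inferred unit of the deposited tables) and were tested. Cxcr2, Ccr1, S1pr1 and S1pr4 were higher in MHCII-hi, and Ccr2 and Ccrl2 were lower. Cxcr4 and Cxcr3 did not pass the test, and Ccr9 was too low to be tested. A gene was called where limma, fitted to log2(FPKM + 1) over 12037 genes, gave an adjusted p under 0.05. Among all genes tested 60.9% were called, 20.4% as higher and 40.6% as lower, so 6 called receptors of 8 is a share near that of all genes. The libraries of the fractions did not overlap for the same 6 receptors, nor for 67.6% of all genes tested (22.6% with MHCII-hi above and 45% with MHCII-lo above). The receptors' median log2 fold change was 0.31, against −0.12 for all genes tested. Log2 fold changes subtract MHCII-lo from MHCII-hi and understate the change of genes at low levels. Median-ratio scaling moved the median of all genes to −0.0105. Then 28.2% of genes were higher and 25.9% lower (3392 and 3123 genes, against 2450 and 4883 as deposited), so that higher genes were 52.1% of calls against 33.4%.

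**Figure D1:**
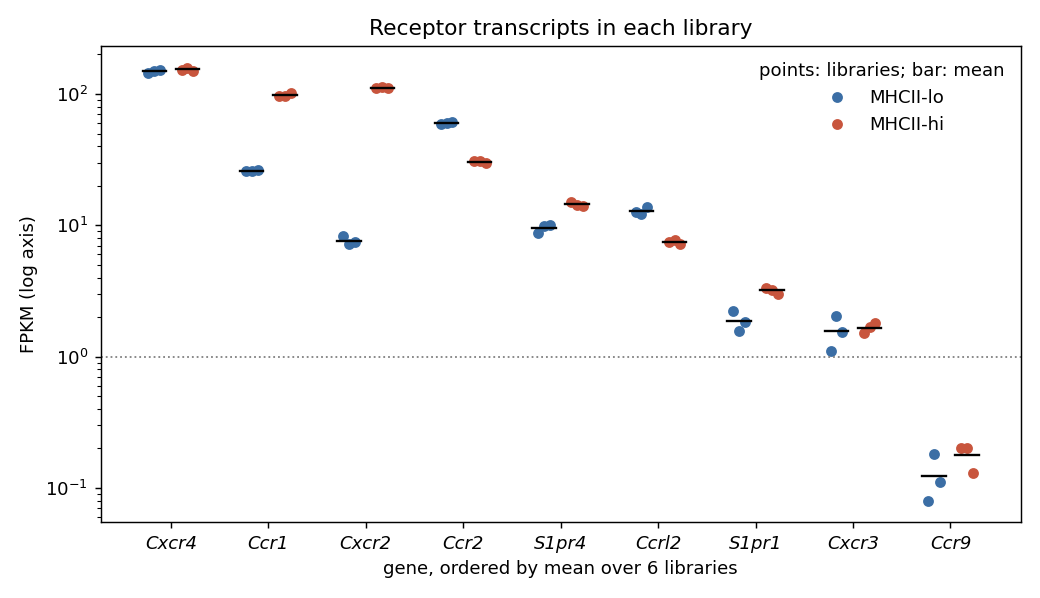
FPKM (log axis) of the 9 receptor genes in each of the 6 libraries, ordered by mean level, with 3 points and a bar for the mean per fraction and a dotted line at 1 FPKM, the limit for testing. Cxcr2 lies at 7.25 to 8.27 FPKM among MHCII-lo libraries and at 110.16 to 112.90 in MHCII-hi, while Cxcr4 lies between 143.96 and 158.90 over both fractions and Ccr9 under the line.

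The libraries were alike within a fraction, with correlations of log2 values across genes of 0.991 to 0.993, and 0.945 to 0.947 between fractions. Summed FPKM were 327364 to 346651 per library, and read depth is unknown because FPKM keep none. Markers of other marrow cells were read beside the receptors. Each of 20 neutrophil markers passed the test as higher, and their summed level went from 9520 to 9600 FPKM in MHCII-lo to 56099 to 56756 in MHCII-hi, with no marker at 0. Of 12 monocyte markers, which include Ccr2, 10 were lower and 2 higher, and the sum went from 1114 to 1141 down to 669.8 to 700.4 FPKM. Of 15 stem cell markers, Procr, Slamf1, Mecom, Fgd5, Hoxb5 and Tek were under 1 FPKM in every library. The sum of those 15 was 59.6 to 63.2 FPKM among MHCII-lo libraries and 55.6 to 59.5 in MHCII-hi, most of it from Kit, Ly6a, Cd34 and Gata2. The stem cell label thus stood beside neutrophil transcripts that were far more abundant than stem cell transcripts in both fractions. In such bulk samples, fewer cells of a type and less RNA per cell cannot be told apart.

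Cxcr4 was the most abundant of the 9 receptors in both fractions and did not differ between them by the test. It lies on chromosome 1 (128588199 to 128592293, GRCm38, minus strand). Its level was 143.96, 149.34 and 151.86 FPKM in the MHCII-lo libraries and 152.21, 158.90 and 150.86 FPKM in the MHCII-hi libraries. The lowest MHCII-hi value lay inside the MHCII-lo range, so the groups overlapped. The log2 fold change was 0.053 (SE 0.0295, 95% interval −0.017 to 0.12, limma adjusted p 0.158). The call depended on how libraries were scaled. With libraries scaled to the same sum the log2 fold change was −0.022 (adjusted p 0.547) and under quantile normalization 0.036 (adjusted p 0.334). After median-ratio scaling it was 0.18 (adjusted p 0.00174), and with neutrophil markers left out of the total it was 0.19 (adjusted p 0.00164).

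Cxcr2, the receptor of neutrophil exit, had the largest change of the receptors tested, as deposited and under each of the 17 alternatives. It lies on chromosome 1 as well (74153989 to 74161246, plus strand). The MHCII-lo libraries held 8.27, 7.25 and 7.45 FPKM and the MHCII-hi libraries 110.74, 112.90 and 110.16 FPKM. The groups lay far apart, and the mean rose 14.5-fold, from 7.66 ± 0.540 to 111 ± 1.44 FPKM (SD, n = 3 per group). The log2 fold change was 3.70 (SE 0.0466, limma adjusted p 1.01e-08), higher than that of 99.9% of the genes tested. Cxcr1, the neighbouring receptor for some of the same ligands and chosen after its values were seen, was 0.1 ± 0.113 FPKM among MHCII-lo libraries and 1.68 ± 0.177 in MHCII-hi. Its mean lay under the limit, and it passed only in a fit with no limit (log2 fold change 1.29, limma adjusted p 0.0003). Beside these receptors, the neutrophil markers S100a9 and S100a8, the subunits of calprotectin, rose 6.48-fold and 5.59-fold. The part of the neutrophil genes in the Cxcr2 value was not tested.

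**Figure D2:**
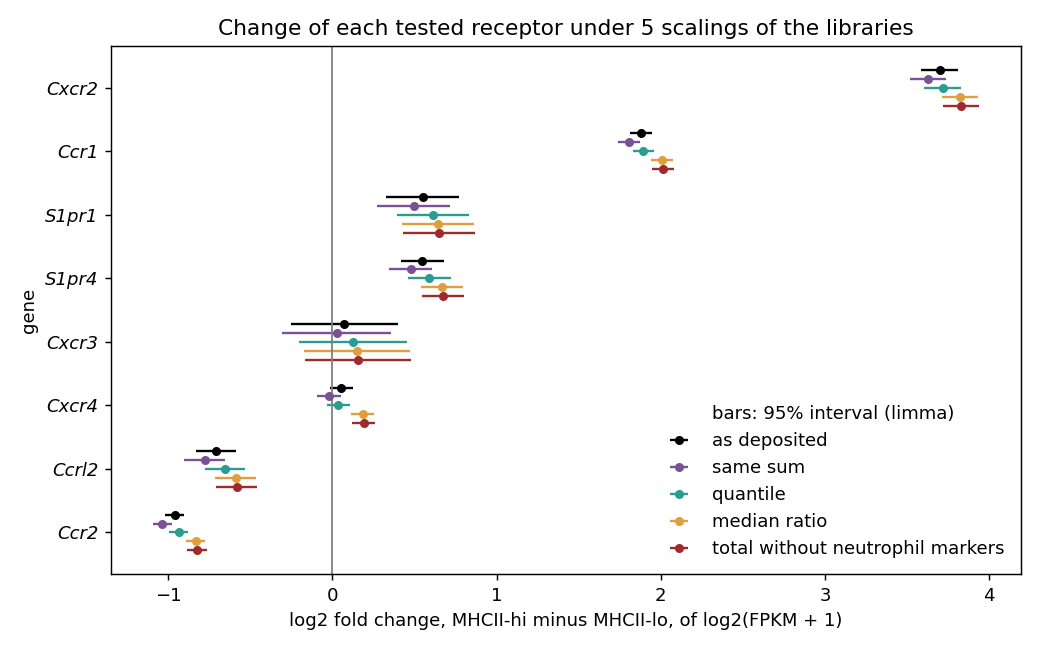
Log2 fold change (MHCII-hi minus MHCII-lo, of log2(FPKM + 1)) of the 8 tested receptors, with 95% intervals from limma, for the values as deposited and under 4 other scalings of the libraries. The intervals of Cxcr2, Ccr1, S1pr1, S1pr4, Ccrl2 and Ccr2 stay on one side of 0 under all 5, while Cxcr4 lies at −0.022 to 0.19 and leaves 0 under 2 of them.

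The windows before the start sites of Cxcr4, Cxcr2 and Ccr1 are shown because these were the 3 receptors with the highest levels in MHCII-hi. Of these, Cxcr2 and Ccr1 were called higher, while the call of Cxcr4 depended on the scaling. Each window is the 250 bases before the RefSeq start (GRCm38.p6), 5′ to 3′ on the gene's strand. Capitals mark matches, on either strand, to GAGGAA (the core of the PU.1 motif) or to TTNNGNAA (a loose form of the C/EBP motif), both being factors of myeloid cells. In Ccr1 the matches overlap and are marked as one run.
Cxcr4, chr1:128592300-128592549, minus strand: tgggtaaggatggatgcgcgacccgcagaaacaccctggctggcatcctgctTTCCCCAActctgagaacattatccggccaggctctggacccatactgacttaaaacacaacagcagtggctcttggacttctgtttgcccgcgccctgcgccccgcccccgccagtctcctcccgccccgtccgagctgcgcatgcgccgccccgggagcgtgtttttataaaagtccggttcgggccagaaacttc
Cxcr2, chr1:74153744-74153993, plus strand: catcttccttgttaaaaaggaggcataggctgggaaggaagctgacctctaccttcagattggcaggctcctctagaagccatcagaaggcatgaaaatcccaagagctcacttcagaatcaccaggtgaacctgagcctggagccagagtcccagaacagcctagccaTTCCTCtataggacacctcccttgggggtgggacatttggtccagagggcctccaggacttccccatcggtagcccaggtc
Ccr1, chr9:123968693-123968942, minus strand: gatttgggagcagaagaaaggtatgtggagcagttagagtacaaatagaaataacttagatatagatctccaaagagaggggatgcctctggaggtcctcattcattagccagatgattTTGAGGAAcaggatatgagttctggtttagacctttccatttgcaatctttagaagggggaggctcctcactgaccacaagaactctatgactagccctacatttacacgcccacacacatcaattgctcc
The Cxcr2 window held 1 PU.1 match, 81 bases before the start, and no C/EBP match. The Ccr1 window held 1 of each, and the Cxcr4 window 1 C/EBP match, 198 bases before the start. Over 32851 windows of this length, 23.3% held the PU.1 letters and 36.8% the C/EBP letters, so single matches are common. The Cxcr4 window had 61.2% G or C and 19 CpG pairs, against 54.4% and 1 pair for Cxcr2 and 43.6% and 1 pair for Ccr1. Windows were found for 8 of the 9 receptors. Of those not shown, the Cxcr3 window also held 1 match of each kind and the Ccr2 window 1 C/EBP match. The windows of Ccr9, Ccrl2 and S1pr4 held no match.

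Ccr2, the receptor for CCL2 that inflammatory monocytes need to leave the marrow, fell in MHCII-hi. Its gene lies on chromosome 9 (124101950 to 124113557, plus strand). It stood at 59.22, 60.42 and 61.19 FPKM in the MHCII-lo libraries and at 30.70, 30.72 and 30.01 FPKM in the MHCII-hi libraries. Every MHCII-lo value lay above every MHCII-hi value. The mean was 1.98-fold lower in MHCII-hi, with a log2 fold change of −0.96 (SE 0.0254, limma adjusted p 2.62e-07). Only 1.55% of the genes tested had a lower log2 fold change. Beside it, Ly6c2, the surface antigen of inflammatory monocytes, fell from 475 ± 5.14 to 315 ± 14.4 FPKM and F13a1, a coagulation factor subunit that monocytes make, from 178 ± 1.40 to 108 ± 1.18 FPKM. The part of the monocyte genes in the Ccr2 value was not tested.

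Ccr1, which binds CCL3, CCL5, CCL6 and CCL9 and is carried by mouse neutrophils as well as monocytes, went the other way. It lies 133258 bases from Ccr2 (chromosome 9, 123962124 to 123968692, minus strand). The levels were 25.78, 26.07 and 26.31 FPKM among MHCII-lo libraries and 96.86, 96.97 and 101.67 FPKM in MHCII-hi. The groups did not overlap, and the mean rose 3.78-fold (log2 fold change 1.88, SE 0.0279, limma adjusted p 2.02e-08).

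Ccrl2, an atypical receptor that binds chemerin without signalling and can pair with CXCR2 on neutrophils, fell. It also lies on chromosome 9 (111054486 to 111057519, minus strand). The MHCII-lo libraries held 12.58, 12.22 and 13.75 FPKM and the MHCII-hi libraries 7.48, 7.72 and 7.20 FPKM. All MHCII-lo values were the higher ones, and the mean was 1.72-fold lower in MHCII-hi (log2 fold change −0.71, SE 0.0521, limma adjusted p 3.51e-05). So Ccrl2 and Cxcr2, whose proteins can pair, moved in opposite directions.

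Both S1P receptors of the set were higher in MHCII-hi by a similar fold. S1pr4, found mainly on blood cells (chromosome 10, 81497747 to 81500132, minus strand), stood at 8.80, 9.90 and 10.00 FPKM among MHCII-lo libraries and at 15.00, 14.21 and 14.04 FPKM in MHCII-hi. The groups did not overlap, and the mean rose 1.51-fold (log2 fold change 0.55, SE 0.0551, limma adjusted p 0.000167). S1pr1, the receptor of lymphocyte egress (chromosome 3, 115710433 to 115715072, minus strand), was scarcer, at 2.22, 1.56 and 1.84 FPKM among MHCII-lo libraries and 3.34, 3.21 and 3.02 FPKM in MHCII-hi. Again no MHCII-lo library reached the lowest MHCII-hi library. The mean rose 1.70-fold (log2 fold change 0.55, SE 0.0933, limma adjusted p 0.00208). S1pr3, a further member of the S1P family, fell from 1.90 ± 0.107 to 0.863 ± 0.214 FPKM (limma adjusted p 0.00169). S1pr2, chosen after its values were seen, was 1.51 ± 0.107 and 1.41 ± 0.227 FPKM and did not pass (limma adjusted p 0.578).

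Cxcr3 and Ccr9, receptors known mainly from T cells, NK cells and plasmacytoid dendritic cells, were low. Cxcr3 (chromosome X, 101731535 to 101734269, minus strand) stood at 1.10, 2.03 and 1.55 FPKM among MHCII-lo libraries and at 1.52, 1.68 and 1.79 FPKM in MHCII-hi. The MHCII-hi values lay wholly within the MHCII-lo range (log2 fold change 0.072, 95% interval −0.25 to 0.40, limma adjusted p 0.672). The interval leaves room for a change of either sign. Ccr9 (chromosome 9, 123678439 to 123784330, plus strand) stood at 0.08, 0.18 and 0.11 FPKM among MHCII-lo libraries and at 0.20, 0.20 and 0.13 FPKM in MHCII-hi. The groups overlapped, and an exact two-sided permutation test gave p = 0.2, where 3 against 3 libraries cannot give less than 0.1. GENCODE draws Ccr9 across several genes, among them Lztfl1 and Slc6a20a on the opposite strand and Gm17200 and Gm17020 on its own strand. Use of strand is not stated, and it could not separate genes of the same strand. Part of the few Ccr9 reads may thus belong to these genes.

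Of 13 T and NK cell markers, 10 were tested and 5 of these were lower in MHCII-hi. That share is near the 40.6% of all genes tested that were lower. After median-ratio scaling 3 were lower, against 25.9% of all genes tested. The sum of the 13 was 195 to 202 FPKM among MHCII-lo libraries and 161 to 172 in MHCII-hi. Most of it was Nkg7, a granule protein (160 ± 5.66 and 137 ± 5.12 FPKM). That fall of Nkg7 lost its call after median-ratio scaling (limma adjusted p 0.0743). Il2rb, an interleukin receptor chain, fell from 8.80 ± 0.786 to 5.03 ± 0.284 FPKM. Of 8 plasmacytoid dendritic cell markers, which include Ccr9, 5 were tested and all 5 were lower, with sums of 61.3 to 61.5 and 31.04 to 34.04 FPKM. Among them Bst2, a tetherin that other cells also carry, fell from 40.5 ± 0.745 to 20.1 ± 1.54 FPKM, and Runx2, a transcription factor, from 7.93 ± 0.237 to 5.44 ± 0.0306 FPKM. No marker of either list was at 0 in all libraries.

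The order of the receptors by level changed between the fractions. In MHCII-lo, Cxcr4 was followed by Ccr2, Ccr1, Ccrl2, S1pr4, Cxcr2, S1pr1, Cxcr3 and Ccr9. In MHCII-hi, Cxcr4 was followed by Cxcr2, Ccr1, Ccr2, S1pr4, Ccrl2, S1pr1, Cxcr3 and Ccr9. Neighbours in these orders did not overlap between libraries, except S1pr1 and Cxcr3 in MHCII-lo. Cxcr2 thus moved up past Ccr2, Ccr1, Ccrl2 and S1pr4, and Ccr2 moved down past Ccr1 and Cxcr2. Cxcr4 made up 55.3 ± 0.307% of the summed FPKM of the 9 receptors among MHCII-lo libraries and 36.6 ± 0.634% in MHCII-hi, although its own level did not pass the test. The share of Cxcr2 rose from 2.86 ± 0.260% to 26.4 ± 0.105%, and that of Ccr2 fell from 22.5 ± 0.137% to 7.24 ± 0.0944%. The sum itself went from 268 ± 6.05 to 421 ± 4.66 FPKM.

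A ratio of 2 receptors within a library is the same whatever factor that library is multiplied by. The ratio of Cxcr2 to Cxcr4, exit over retention, was 0.0574, 0.0485 and 0.0491 in the MHCII-lo libraries and 0.728, 0.711 and 0.7302 in the MHCII-hi libraries. The 2 ranges were far apart, although Cxcr4 remained the more abundant of the pair in each library. The ratio of Ccr1 to Ccr2 was 0.432 ± 0.00276 among MHCII-lo libraries and 3.23 ± 0.134 in MHCII-hi, so the more abundant of these receptors changed. The ratio of S1pr4 to S1pr1 was 5.25 ± 1.202 and 4.52 ± 0.114, with overlapping values. Of the 4 ratios computed, the first, the second and Cxcr2 to Ccr2 each gave an exact permutation p of 0.1, the smallest that 3 against 3 libraries allow (0.133 adjusted over the 4). For S1pr4 to S1pr1 the exact permutation p was 0.4 (0.4 adjusted).

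**Figure D3:**
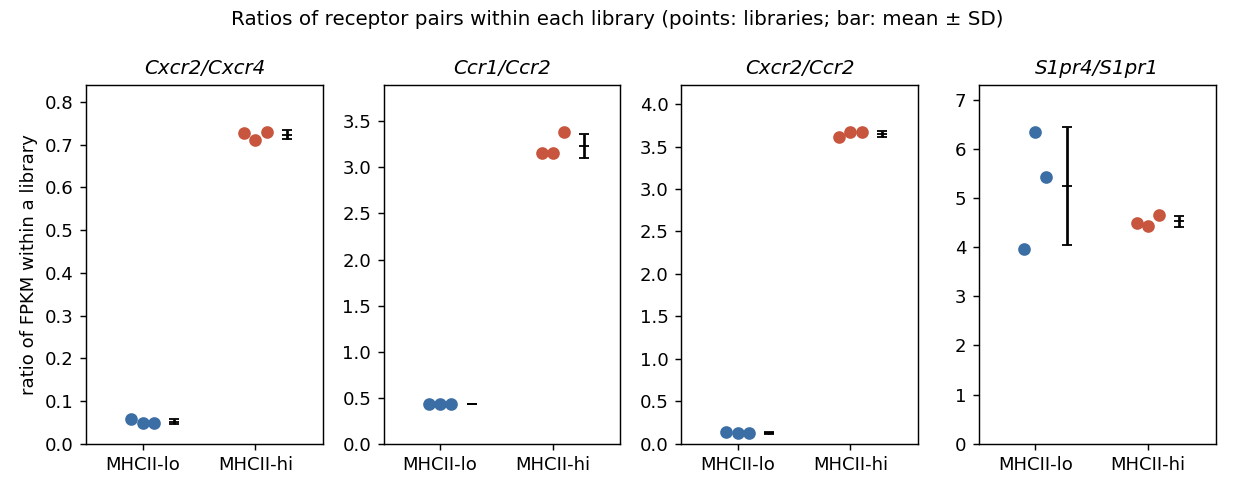
Ratio of FPKM of 4 receptor pairs within each library (linear axes from 0), with 3 points per fraction and the mean ± SD beside them. The ratios Cxcr2/Cxcr4, Ccr1/Ccr2 and Cxcr2/Ccr2 lie apart between the fractions, and S1pr4/S1pr1 overlaps.

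Most other receptors of these families were near the floor of the tables. Of 21 other chemokine, atypical and S1P receptors, 13 stayed under 1 FPKM in all libraries and 5 were tested, of which 1 was higher and 3 lower. The shares over all genes tested were 20.4% higher and 40.6% lower. Cx3cr1, the fractalkine receptor of patrolling monocytes, fell from 6.18 ± 0.356 to 1.64 ± 0.141 FPKM (log2 fold change −1.44, limma adjusted p 2.97e-06). Ccr3, the eotaxin receptor, was called higher (1.35 ± 0.0651 and 1.77 ± 0.145 FPKM, limma adjusted p 0.031). The call of Ccr3 was lost without any library but MHCII-hi replicate 3 (limma adjusted p 0.0501 to 0.0945). It was also lost with libraries scaled to the same sum, with no expression limit and with the replicate block (limma adjusted p 0.0589, 0.0825 and 0.0685).

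Most tested chemokine ligands were lower in MHCII-hi. Of 20 ligand genes found, 10 were tested, of which 8 were lower and 2 higher, with a median log2 fold change of −0.82 against −0.12 for all genes. Over all genes tested, 40.6% were lower and 20.4% higher. Ccl3, a ligand of CCR1, fell from 323 ± 4.70 to 145 ± 6.74 FPKM, and Ccl9, which binds the same receptor, from 82.6 ± 1.53 to 41.96 ± 1.70 FPKM. Ccl5 fell from 28.2 ± 2.33 to 13.2 ± 1.63 FPKM, and Ppbp, a platelet chemokine that yields a ligand of CXCR2, from 10.97 ± 1.73 to 4.78 ± 0.825 FPKM. Not all ligands of CCR1 fell. Ccl6, chosen after its values were seen, was called higher (101.5 ± 2.14 and 111.7 ± 2.46 FPKM, limma adjusted p 0.00367). That call was lost with libraries scaled to the same sum (limma adjusted p 0.084). For the ligands of CXCR2 and CXCR4 themselves, values were chosen after they were seen. Cxcl2, a ligand of CXCR2, rose from 41.7 ± 0.330 to 69.95 ± 2.99 FPKM (limma adjusted p 3.43e-06), and Cxcl12 fell from 1.73 ± 0.248 to 0.670 ± 0.0265 FPKM (limma adjusted p 0.000656). Cxcl12 was thus scarce in these cells.

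Of 9 genes of S1P supply and breakdown, 6 were tested, 4 were lower and 1 was higher, and genes of both roles were among the lower ones. Among all genes tested 40.6% were lower and 20.4% higher. Sphk1, a kinase that makes S1P, fell from 3.24 ± 0.245 to 1.25 ± 0.156 FPKM, and Sgpl1, the lyase that destroys it, from 15.8 ± 0.537 to 12.2 ± 0.518 FPKM. Spns2, an exporter of S1P, rose from 3.52 ± 0.262 to 6.77 ± 0.293 FPKM. Sgpp1, an S1P phosphatase, fell from 20.97 ± 1.47 to 16.9 ± 1.07 FPKM, a call lost after median-ratio scaling (limma adjusted p 0.0551), when 2 genes of the list were lower.

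Genes that carry or stop the receptors' signal were more often higher than lower in MHCII-hi. Of all genes tested, 20.4% were higher and 40.6% lower, or 28.2% and 25.9% after median-ratio scaling. Of 22 genes of G protein signalling, all were tested, and 13 were higher and 5 lower, or 16 and 2 after median-ratio scaling. Fgr, a Src kinase of myeloid cells, rose from 14.5 ± 0.490 to 60.7 ± 0.931 FPKM. Rac2, the blood cell Rac protein that drives migration, rose from 152 ± 3.03 to 252 ± 5.22 FPKM, and Plcb2, a phospholipase, from 26.4 ± 0.178 to 37.4 ± 1.498 FPKM. Of 15 genes of desensitization, 14 were tested, 9 were higher and 3 lower. Rgs16, chosen after its values were seen, was not tested, at 0.40 to 0.70 FPKM among MHCII-lo libraries and 0.03 to 0.22 in MHCII-hi. Arrb2, an arrestin that uncouples and internalizes CXCR2 and CXCR4, rose from 41.99 ± 0.396 to 103 ± 0.817 FPKM (log2 fold change 1.27, limma adjusted p 3.00e-08). Gpsm3, a G protein modulator of leukocytes, rose from 41.6 ± 1.56 to 75.4 ± 0.565 FPKM and Rgs14, which speeds the switching off of Gi proteins, from 9.12 ± 0.703 to 15.3 ± 1.17 FPKM. Rgs10, another protein of that family, fell from 20.7 ± 1.36 to 8.84 ± 0.2802 FPKM.

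**Figure D4:**
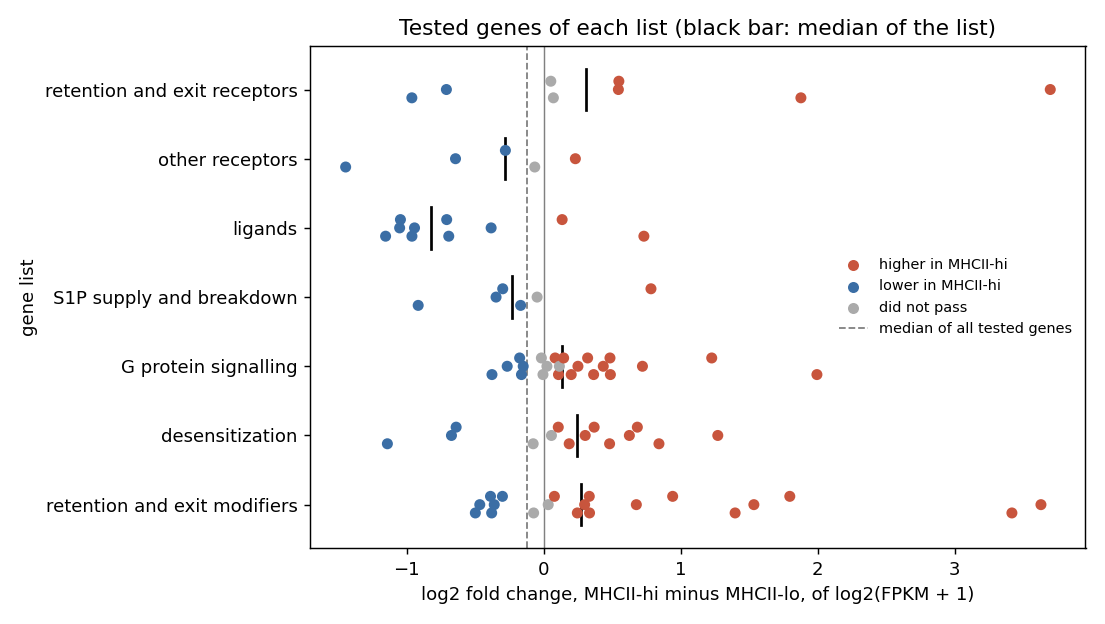
Log2 fold change (MHCII-hi minus MHCII-lo, of log2(FPKM + 1)) of every tested gene of the receptor set and of 6 lists of related genes, coloured by the limma call, with a black bar at each list's median and a dashed line at the median of all tested genes (−0.12). Of the 10 tested ligand genes 8 lie on the lower side, and the receptor set spreads from −0.96 (Ccr2) to 3.70 (Cxcr2).

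Of 20 tested genes that modify retention and exit, 12 were higher and 6 lower, with a median log2 fold change of 0.27. The median of all genes tested was −0.12, with 20.4% higher and 40.6% lower. Mmp9 and Mmp8, neutrophil proteases that can cut CXCL12 or matrix, rose 12.7-fold and 10.8-fold, to 403 ± 3.23 and 800.02 ± 3.12 FPKM. Csf3r, through which G-CSF mobilizes cells, rose from 40.5 ± 1.02 to 143 ± 3.02 FPKM, and Itgam, an integrin chain of neutrophils and monocytes, from 70.2 ± 1.40 to 205 ± 4.07 FPKM. Mmp8, Mmp9 and Csf3r also stand in the neutrophil marker list. Klf2 and Cd69, chosen after their values were seen, bear on S1PR1: KLF2 activates its gene, and CD69 pulls the receptor from the surface. Klf2 rose from 76.4 ± 2.25 to 148 ± 0.303 FPKM (limma adjusted p 2.81e-07). Cd69 fell from 24.05 ± 0.762 to 19.4 ± 0.5696 FPKM (limma adjusted p 0.000437). The part of Klf2 in the S1pr1 transcript level was not tested. The S1PR1 protein at the surface, on which CD69 acts, was not measured in these RNA data. Itga4 and Itgb1, the chains of the integrin VLA-4 that binds marrow stroma, were also chosen after their values were seen. They fell from 24.6 ± 0.609 to 18.6 ± 0.545 and from 62.97 ± 1.58 to 45.3 ± 1.13 FPKM. Cd44 of the same list, chosen likewise, rose from 51.6 ± 0.702 to 65.3 ± 1.36 FPKM (limma adjusted p 4.21e-05). Dpp4, also chosen likewise, fell from 5.28 ± 0.203 to 3.45 ± 0.184 FPKM (limma adjusted p 0.000221). Genes picked in this way do not stand for the whole list.

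Ccr1 and Ccr2 lie in a cluster of receptor genes on chromosome 9, with Ccr9 in the same stretch and Ccrl2 farther away, beside Ltf, the lactoferrin gene. The cluster list held 15 genes, of which 8 were tested, 3 higher and 4 lower. For comparison, 20.4% of all genes tested were higher and 40.6% lower. In chromosome order, Ccr1 rose, Ccr3 nearby was called higher and Ccr2 fell, so neighbouring genes moved in opposite directions. The call of Ccr3 was lost under several alternatives, as given above. Ccr1l1, between Ccr1 and Ccr3 and chosen after its values were seen, was at 0.137 ± 0.0635 and 0.103 ± 0.0961 FPKM. Ccr1 and Ccr1l1 are related in sequence, and how shared reads were divided is not given. Ltf, 11719 bases from Ccrl2, rose from 188 ± 2.75 to 1018 ± 5.79 FPKM while Ccrl2 fell. Among neighbours without receptor function, Lztfl1 was 1.53 ± 0.0651 and 1.31 ± 0.178 FPKM (limma adjusted p 0.215). Fyco1 was called lower (2.73 ± 0.0872 and 2.30 ± 0.0917 FPKM, limma adjusted p 0.0312), a call lost without MHCII-lo replicate 1, 2 or 3 or MHCII-hi replicate 2 or 3 (limma adjusted p 0.0603 to 0.0927). After median-ratio scaling 2 genes of the cluster, Ccr2 and Ccrl2, were lower.

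**Figure D5:**
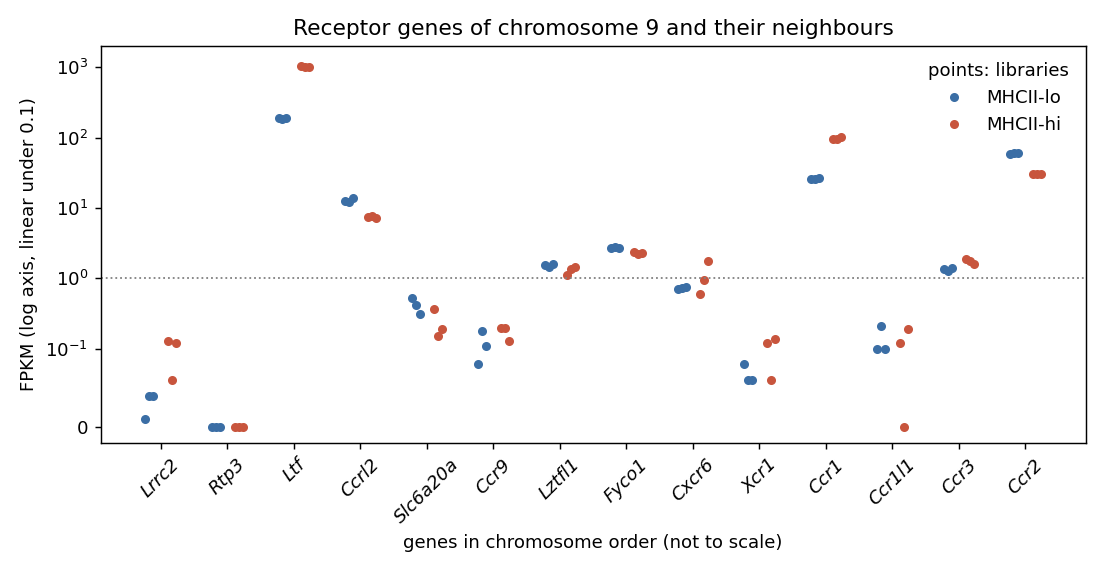
FPKM (log axis, linear under 0.1) in each library of 14 genes of mouse chromosome 9, in chromosome order and not to scale, with 3 points per fraction and a dotted line at 1 FPKM. Ccr1 and Ltf lie higher in MHCII-hi and Ccr2 and Ccrl2 lower, with the receptor genes Xcr1, Ccr1l1 and Ccr9 under the line.

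Other cell types that can carry these receptors were read in the same way. Their counts stand against 20.4% higher and 40.6% lower over all genes tested. Of 8 immature granulocyte markers, 4 were higher and 3 lower, with sums of 5963 to 6117 FPKM among MHCII-lo libraries and 5079 to 5123 in MHCII-hi. Mpo, the peroxidase of early granules, fell from 2044 ± 22.95 to 1566 ± 5.95 FPKM and Elane, neutrophil elastase, from 1708 ± 29.5 to 1331 ± 0.948 FPKM. The 4 higher markers were less abundant. Ms4a3 rose from 256 ± 2.61 to 285 ± 6.51 FPKM and Fcnb from 120 ± 4.29 to 156 ± 3.33 FPKM. Cebpe rose from 34.2 ± 0.983 to 55.3 ± 2.55 FPKM and Gfi1 from 26.1 ± 0.378 to 32.4 ± 1.39 FPKM. Of 10 basophil and eosinophil markers, which include Ccr3, 7 were lower and 1 higher (Ccr3 itself). Their sums went from 4933 to 5010 FPKM in MHCII-lo down to 2084 to 2107 in MHCII-hi. Prg2, an eosinophil granule protein, fell from 3670 ± 34.5 to 1570.3 ± 7.11 FPKM, and Prss34, a basophil protease, from 440.3 ± 11.02 to 159 ± 3.46 FPKM. Of 10 B cell markers 2 were tested. Cd79a, a chain of the B cell receptor complex, rose from 2.41 ± 0.336 to 4.76 ± 0.552 FPKM, and Cd79b was 10.2 ± 0.766 and 9.54 ± 0.5601 FPKM. The B cell sum was 13.9 to 16.7 FPKM among MHCII-lo libraries and 16.9 to 18.1 in MHCII-hi. Of the 9 stem cell markers tested, 4 were higher and 3 lower. Kit was 14.3 ± 0.175 and 13.9 ± 0.318 FPKM, and Cd34 fell from 15.4 ± 0.411 to 11.6 ± 0.2301 FPKM. None of these markers was at 0 in all 6 libraries, and their part in the receptor values was not tested.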

How the data were processed

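RNA sequencing of 3 MHCII-lo and 3 MHCII-hi libraries was analysed. The tools fastp, HISAT2 and StringTie and the build GRCm38 stand in the submitters' processing notes, without versions or roles. Per the labels' protocols, libraries came from a stranded kit for mRNA. The authors deposited 1 table of normalized values per library, taken here as FPKM: no header names the unit, sums differ between libraries, and StringTie, named in the submitters' processing notes, writes FPKM.

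The row with the highest mean was kept for each of 70 repeated symbols. The 12037 genes that averaged 1 FPKM or more were compared as log2(FPKM + 1) with limma 3.58.1 in R 4.3.3, with a mean-variance trend and no covariate, at a Benjamini-Hochberg adjusted p under 0.05. The fit was tested on simulated data with 200 changed genes, far fewer than were called in these data. It recovered 54% of 1.3-fold, 86% of 1.6-fold, 94% of 2-fold and 98% of 4-fold changes. Of its 172 calls 6 were false. Fold changes given as such are ratios of mean FPKM. Ratios and Ccr9 had exact two-sided permutation tests (scipy 1.17.1). Positions come from GENCODE and start windows from RefSeq.

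The receptors and 15 other gene lists (231 entries in all, 1 not found: Cxcl15) were chosen with earlier results of these data known. The text names all receptors; per related list the 4 called genes with the largest change; chromosome 9 genes with a mean of at least 1; the 2 most abundant markers per cell type; and for 4 receptors the 3 genes of most similar profile. A pair of genes that this rule names is not reported here. Alternatives changed the pseudocount, filter, scaling, variance model, replicate block and each library in turn.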

Additional observations from a re-analysis of the deposited data

How the results depend on the processing

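The 6 receptor calls (Cxcr2, Ccr1, S1pr1 and S1pr4 higher, Ccr2 and Ccrl2 lower) held in direction and call under every one of the 17 alternatives in which the gene was tested; S1pr1 was not tested at a mean of at least 5 FPKM. Log2 fold changes ranged from 3.20 to 3.85 for Cxcr2, 1.74 to 2.01 for Ccr1, −1.03 to −0.83 for Ccr2, −0.78 to −0.52 for Ccrl2, 0.25 to 0.75 for S1pr1 and 0.42 to 0.67 for S1pr4. Cxcr4 was called under 2 scalings, as given above, and its value was −0.022 with libraries scaled to the same sum. Cxcr3 turned to −0.063 without MHCII-lo replicate 1 and was at most 0.20 without another library (adjusted p 0.186 to 0.88 over its alternatives). Ccr9 differed by 0.0533 FPKM as deposited and by 0.067 after median-ratio scaling. Over all genes, 3123 were lower after median-ratio scaling and 3040 when neutrophil markers were left out of the total, against 4883 as deposited; the cause was not tested. Among other named genes without a call as deposited, signs turned for Cd79b (0.038 and 0.044 in these scalings) and Kit (0.078 and 0.085). They also turned, with libraries scaled to the same sum, for Ube3b (−0.013), Traf7 (−0.0076) and Thada (−0.0083). In the same scaling Kit was called lower (−0.12, limma adjusted p 0.0185). After median-ratio scaling Ube3b, Traf7 and Thada were called higher (limma adjusted p 0.00666, 0.00436 and 0.0449), and likewise with neutrophil markers left out of the total; Traf7 was also called under quantile normalization (0.0405). Replicate numbers are shared between fractions, but the labels do not say that they mark a shared animal or day, and same-numbered libraries did not deviate together (correlations of −0.0533 to −0.0435 across genes). With the replicate number as a block, 2305 genes were higher and 4659 lower, and of the receptors 4 were higher and 2 lower. FPKM keep no depth, so no counting error could be given for low receptors such as Ccr9.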

Other observations

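For 4 receptors, the tested genes with the most similar profile over the 6 libraries were sought, by the root mean square difference of log2(FPKM + 1) after each gene's MHCII-lo mean was subtracted. With 2 fractions this likeness reflects mainly the size of the difference between them. Nearest to Cxcr2 were Olfm4, a glycoprotein of a neutrophil subset (0.0757, 5.58 ± 0.391 to 90.8 ± 0.522 FPKM), Mmp9 (0.0812) and Il1b, an inflammatory cytokine (0.1302, 5.62 ± 0.344 to 78.4 ± 2.60 FPKM). Only 2 genes lay within 0.1 of Cxcr2, against 1889 for Cxcr4, 72 for Ccr2 and 236 for S1pr4. Cxcr4 thus had a profile shared by many genes. Its nearest were Ube3b (0.0158), Traf7 (0.0169) and Thada (0.0176), at 13.7 ± 0.359 and 14.3 ± 0.482, 18.2 ± 0.628 and 19.03 ± 0.4803, and 3.13 ± 0.0954 and 3.27 ± 0.1102 FPKM. Nearest to Ccr2 were Sowahc (0.0138), Gbp3, an interferon-induced GTPase (0.0235), and Cep85 (0.0276), whose log2 fold changes were −0.96, −0.95 and −0.94. Nearest to S1pr4 were Snx13 (0.0286), Igkv19-93, a kappa light chain V gene whose reads resemble those of its relatives (0.0323), and Asns, asparagine synthetase (0.0368), with log2 fold changes of 0.52, 0.53 and 0.59.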
